A study of Mus musculus with 6 samples.

Results

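Autophagy machinery genes encode the proteins that build an autophagosome around cytoplasm, load it with cargo and fuse it with a lysosome. The 38 genes described here were chosen by name, from kinases of initiation to fusion factors and the transcription factors of the pathway, and all 38 were found among the 54532 Ensembl genes in the count table. Liver RNA had been sequenced from 3 Cd44 knockout mice, of strain B6.Cg-Cd44tm1Hbg/J and homozygous for its targeted Cd44 allele, and from 3 wild-type mice. All 6 mice, of both genotypes, drank the ethanol form of the Lieber-DeCarli diet (5% ethanol, vol/vol) for 10 days, were gavaged with ethanol at 5 g/kg on day 11 and were killed 9 hours after that dose. Mice without ethanol were not analysed here, and the labels give neither sex, age nor the strain of the wild-type mice. The knockout is not limited to a cell type, and whole liver was sampled.

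Autophagy begins when the ULK kinase complex activates a lipid kinase complex around Beclin 1, whose product, phosphatidylinositol 3-phosphate, recruits further factors to a growing membrane. An enzyme cascade like that of ubiquitin then joins ATG8 proteins (LC3 and GABARAP) to this membrane, where receptors such as p62 bring in cargo, and tethers and SNARE proteins fuse the closed vesicle with a lysosome. In hepatocytes the pathway is known for degrading lipid droplets, damaged mitochondria and protein aggregates, and p62 aggregates are a feature of alcohol-related liver disease.

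The libraries held 15493009 to 19346623 counts, and the lowest count of any member in any library was 71, for Atg10. Cd44 had 1, 0 and 0 counts in knockout mice 1, 2 and 3, against 590, 175 and 568 counts in wild-type mice 1, 2 and 3, so no library went against its label. The share of counts from mitochondrial genes was 4.73% to 6.04% in knockout libraries and 4.73% to 5.79% in wild-type libraries. All 8 hepatocyte markers were detected, with Alb at 63870 to 88520 CPM in the 6 mice. The 12 Kupffer cell and macrophage markers were all detected as well; their summed level was 290.9, 322.5 and 293.4 CPM in the knockout mice, against 984.1, 361.9 and 843.4 CPM in wild-type mice 1, 2 and 3. The sum of the 5 cholangiocyte markers was 36.3, 31.1 and 27.5 CPM in the knockout mice, against 51.6, 65.1 and 58.7 CPM in the wild-type mice. Most of it was 1 gene, Spp1 (25.5, 22.9 and 18.1 CPM in knockout mice, against 36.5, 52.7 and 42.3 CPM in wild-type mice), and each of the other 4 markers overlapped between genotypes. In bulk liver, fewer cells of a type and less RNA per cell cannot be told apart. CPM are read counts scaled to a common library size after TMM normalisation. Fold changes are log2 ratios of knockout to wild-type, given ± their standard error.

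Most of the machinery was at nearly the same level in both genotypes, and a few members stood out. Epg5, a tether that fuses autophagosomes with lysosomes, had about 2.01 times the wild-type level in knockout livers, Sqstm1, which encodes the receptor p62, 1.61 times, and Gabarapl1, an ATG8 gene, 1.37 times. Atg2a, which encodes a lipid transfer protein, was at 0.712 times the wild-type level. Of the 38 members, 33 lay within 0.3 of no change on the log2 scale (86.8%, against 65.7% of all 14145 genes tested and 74.5% of the 10437 genes with a mean level of at least about 4 CPM). The median log2 fold change of the members was 0.08, against -0.01 for all genes tested, and 23 members had the higher mean in the knockout (60.5%, against 48.9% of all genes tested).

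No member passed an adjusted p of 0.05 over all genes in edgeR's quasi-likelihood test, where 2 genes passed in all (0.0141% of those tested), and none passed in limma-voom, where 0 genes passed. DESeq2 called 1 member, Epg5, higher in the knockout, among 340 calls (2.5% of the genes given an adjusted p, 0.912% higher and 1.59% lower in the knockout). An unadjusted p under 0.05 in edgeR was reached by 3 members, Epg5 and Sqstm1 with a higher and Atg2a with a lower level in the knockout, that is 3 of 38 against 12.8% of all genes tested (5.22% higher and 7.59% lower). The values of the knockout and wild-type mice did not overlap for 8 members (6 higher and 2 lower in the knockout), against 18.2% of all genes tested (8.81% higher and 9.42% lower). The first of these counts was below the share of all genes, and the second was close to it.

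**Figure D1:**
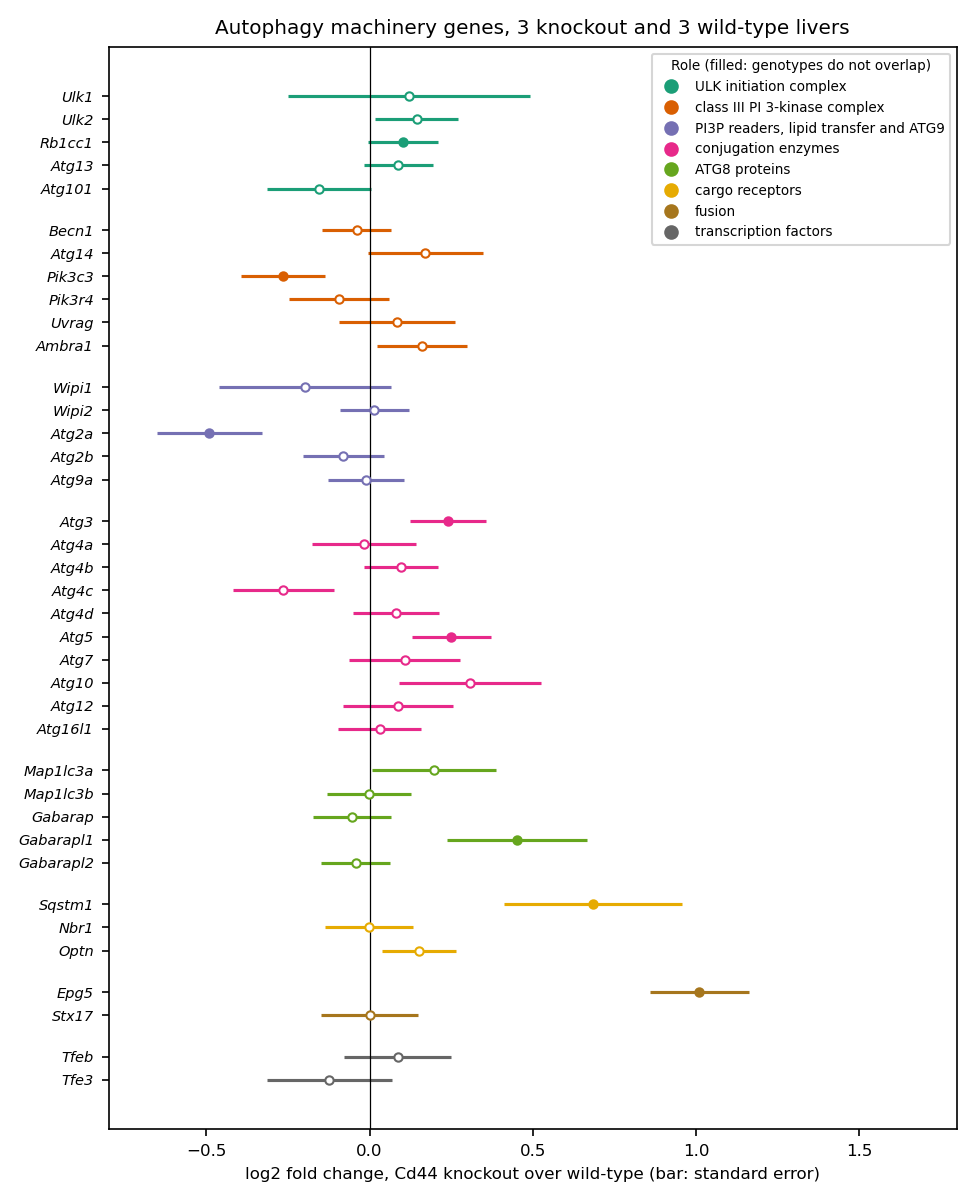
Log2 fold change of each of the 38 members, knockout over wild-type, with its standard error, coloured by role; filled points are members whose genotypes do not overlap. Epg5 (1.01), Sqstm1 (0.68), Gabarapl1 (0.45) and Atg2a (-0.49) lie farthest from 0, and most of the others lie close to it.

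Of the fusion genes, Epg5 set the knockout livers apart. Epg5 encodes a tethering protein that binds the lysosomal GTPase RAB7 and ATG8 proteins, and its loss causes Vici syndrome in humans. Epg5 (ENSMUSG00000039840; GRCm38, chromosome 18, 77938465 to 78035013, plus strand) had 79.0, 114.1 and 93.5 CPM in knockout mice 1, 2 and 3, against 50.5, 44.6 and 47.2 CPM in wild-type mice 1, 2 and 3. The lowest knockout mouse stood well above the highest wild-type mouse, and the wild-type mice lay close together. The log2 fold change was 1.01 ± 0.15, and by its p in edgeR Epg5 stood at rank 9 of the 14145 genes. Its adjusted p was 0.217 in edgeR, 3.67e-05 in DESeq2 and 0.283 in limma-voom. Leaving out each mouse in turn gave 0.86 to 1.14, with adjusted p of 0.0604 to 0.698 in edgeR. Wild-type 2, whose sum of macrophage markers (361.9 CPM) lay nearest to the knockout mice, had the lowest Epg5 level of the 6 mice; the part of cell makeup in the difference was not tested. Stx17, the SNARE protein of the autophagosome that drives the same fusion step, gave 33.9 ± 0.990 CPM in knockout and 33.8 ± 6.19 CPM in wild-type livers (SD, n = 3 each).

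Sqstm1 was the most abundant member per exon length (RPKM). Its product p62 binds ubiquitinated cargo and ATG8 proteins, is itself degraded by autophagy, and holds back KEAP1, the inhibitor of the transcription factor NRF2. Sqstm1 (ENSMUSG00000015837; chromosome 11, 50199366 to 50210827, minus strand) had 1816, 2249 and 1964 CPM in knockout mice 1, 2 and 3, against 1785, 1079 and 889.9 CPM in wild-type mice 1, 2 and 3. The groups were separated by a narrow gap, since wild-type 1 lay just below knockout 1, and the other two wild-type mice lay far lower. The log2 fold change of 0.68 ± 0.27 had an adjusted p of 0.355 in edgeR and 0.148 in DESeq2, and it was 1.03 without wild-type 1 and 0.49 without wild-type 3. The receptor Nbr1, which resembles p62, was at 203.7 ± 14.3 CPM in knockout and 203.9 ± 22.3 CPM in wild-type livers (SD, n = 3 each). Optn encodes optineurin, a receptor for mitochondria and bacteria. It had 98.8, 99.9 and 102.8 CPM in knockout mice, against 84.8, 86.5 and 100.3 CPM in wild-type mice, with wild-type 3 inside the knockout range (log2 fold change 0.15 ± 0.11, adjusted p = 0.65).

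Of the 5 ATG8 genes, Gabarapl1 alone had genotypes that did not overlap (1 of 5, against 18.2% of all genes tested). Gabarapl1 (ENSMUSG00000030161; chromosome 6, 129533160 to 129542346, plus strand) had 431.8, 458.4 and 435.4 CPM in the knockout mice, against 337.9, 406.9 and 224.2 CPM in wild-type mice 1, 2 and 3. The knockout mice were tightly grouped, and wild-type 3 was low. The log2 fold change was 0.45 ± 0.21 (adjusted p = 0.43 in edgeR) and 0.25 without wild-type 3, against 0.66 without wild-type 2. Map1lc3b encodes LC3B, the protein most used to mark autophagosomes. It had 129.5, 110.0 and 114.7 CPM in knockout mice, against 104.2, 124.7 and 125.7 CPM in wild-type mice, and the groups overlapped. Map1lc3a had 48.1, 54.2 and 57.0 CPM in knockout mice, against 41.3, 37.0 and 60.6 CPM in wild-type mice, where wild-type 3 was the highest of all (log2 fold change 0.20 ± 0.19, adjusted p = 0.733). Gabarap and Gabarapl2 had log2 fold changes of -0.05 ± 0.12 and -0.04 ± 0.11. The counts cannot separate reads shared with processed copies of these short genes, since the handling of reads with several matches is not given in the sources used here.

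**Figure D2:**
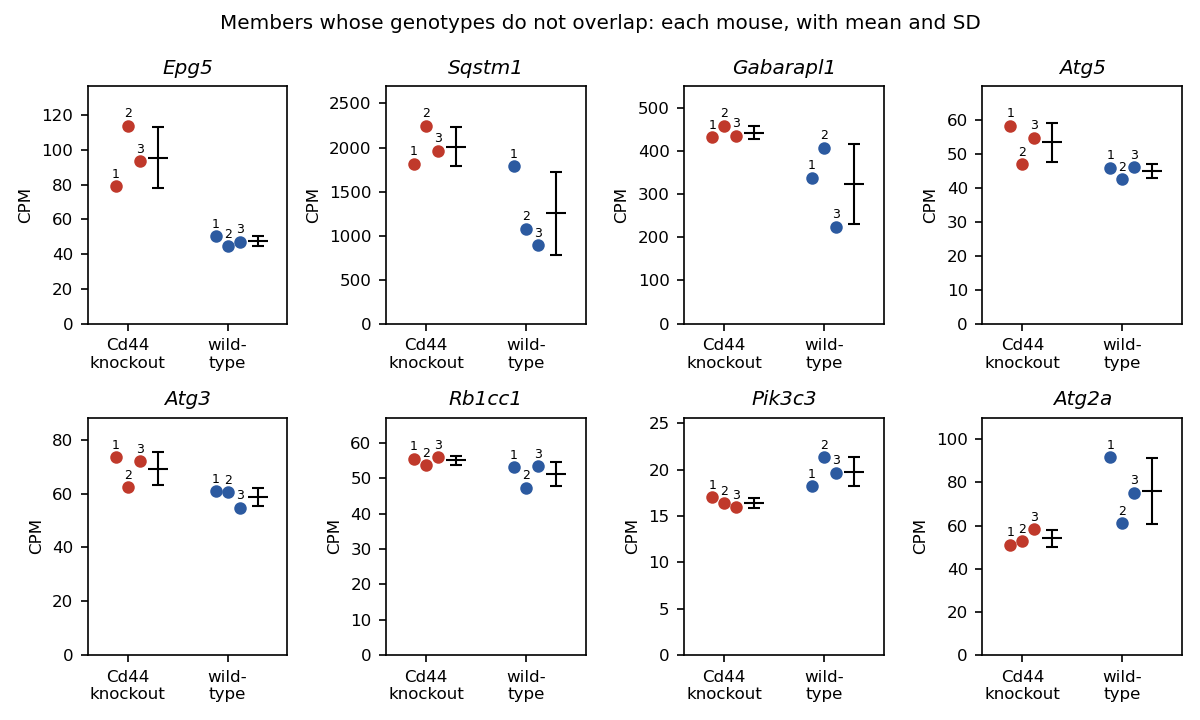
CPM of the 8 members whose genotypes do not overlap, with 1 point per mouse (numbered) and the mean and SD of each genotype beside it. In Epg5 the lowest knockout mouse (79.0 CPM) stands far above the highest wild-type mouse (50.5 CPM), and in the other 7 panels the gap between the genotypes is narrower than the wild-type SD.

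Levels were compared between members per kilobase of merged exons (RPKM), which counts exons of every annotated transcript and so understates genes with many long models. On this scale Sqstm1 averaged 485.8 RPKM over the 6 mice, followed by Gabarapl1 at 190.0, Gabarap at 92.8 and Map1lc3a at 42.1 RPKM. Map1lc3b stood at 15.7 RPKM with 7517 merged exon bases, against 1181 bases for Map1lc3a. By reads Map1lc3b was the higher of the 2 (118.0 against 53.1 CPM in knockout and 118.2 against 46.3 CPM in wild-type livers). The shares below depend on exon length in the same way. At the lower end were Tfeb at 2.04 and Pik3r4 at 2.41 RPKM, so the members spanned a 238-fold range. Sqstm1 made up 91.3% ± 1.10 of the summed RPKM of the 3 receptor genes in knockout livers and 86.5% ± 3.92 in wild-type livers (SD, n = 3 each; exact permutation p = 0.2, two-sided). Gabarapl1 made up 56.5% ± 0.967 of the 5 ATG8 genes in knockout livers and 48.4% ± 9.47 in wild-type livers, and Gabarap 23.4% ± 1.02 in knockout and 29.1% ± 3.88 in wild-type livers (exact permutation p = 0.1 for each, the smallest that 3 against 3 mice allow). These shares depend on each other, since Gabarapl1 is part of the sum that Gabarap is divided by. The Gabarap level itself was 168.0 CPM in knockout and 174.3 CPM in wild-type livers (means of 3 mice each). Over the 10 shares computed, the smallest adjusted p was 0.2.

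**Figure D3:**
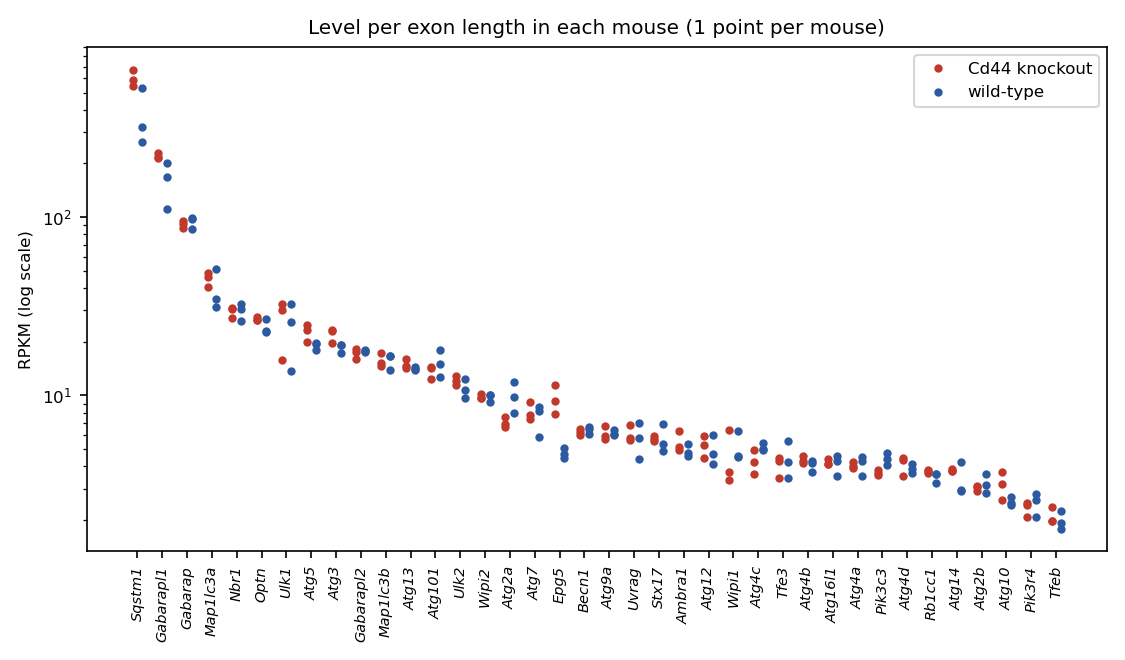
Level of each member per kilobase of exon (RPKM, log scale) with 1 point per mouse, knockout to the left of wild-type, ordered by the mean of all mice. Sqstm1 (485.8) and Gabarapl1 (190.0) lead, and most other members fall below 30 RPKM.

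The conjugation enzymes differed by small amounts. Of 10 genes, 8 had a higher mean in the knockout; the median log2 fold change was 0.09, and none reached an unadjusted p under 0.05. Atg3 encodes the E2 enzyme that passes ATG8 proteins to lipid, and Atg5 is a partner of ATG12 in the complex that directs this transfer. Atg3 had 73.6, 62.3 and 72.1 CPM in knockout mice, against 60.8, 60.4 and 54.7 CPM in wild-type mice (log2 fold change 0.24 ± 0.12, adjusted p = 0.443 in edgeR). Atg5 had 58.3, 46.9 and 54.8 CPM in knockout mice, against 45.8, 42.5 and 46.1 CPM in wild-type mice (0.25 ± 0.12, adjusted p = 0.442). In both genes knockout 2 lay closest to the wild-type mice, and the groups just failed to overlap. Atg7, the E1 enzyme that activates both ATG12 and the ATG8 proteins, had 63.7, 51.5 and 54.2 CPM in knockout mice, against 56.7, 60.0 and 40.5 CPM in wild-type mice. Atg16l1, the membrane-binding subunit of the ATG12 and ATG5 complex, had 39.8, 39.7 and 42.2 CPM in knockout mice, against 43.8, 34.1 and 41.2 CPM in wild-type mice. Both of these overlapped between genotypes. The 4 ATG4 proteases, which trim ATG8 proteins and release them from lipid, ran from -0.26 ± 0.15 for Atg4c to 0.10 ± 0.11 for Atg4b, and Atg10 and Atg12, the E2 enzyme for ATG12 and ATG12 itself, gave 0.31 ± 0.22 and 0.09 ± 0.17.

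TFEB and TFE3 are basic helix-loop-helix factors that bind an E-box, CACGTG, in promoters of lysosomal and autophagy genes. This motif was searched in the 250 bases before each RefSeq start (GRCm38.p6; it reads the same on both strands); starts were listed for 31 of the 38 members. The other 7, Rb1cc1 among them, were not searched. The E-box was present for Atg3, Atg5 and Atg7, that is 3 of 31 members (9.68%), against 6.86% of 27025 genes. The NRF2 element TGACNNNGC was present for Ulk2 and Atg13 (6.45% of members, against 11.5% of genes, either strand), and the forkhead motif GTAAACA for none of the 31 (against 3.54% of genes, either strand). These are letter matches in one window and not binding sites. The sequences before the starts of Atg3 and Atg5, which hold the E-box and whose genotypes did not overlap, and of Sqstm1 and Gabarapl1, the receptor and ATG8 genes whose genotypes did not overlap, are given 5′ to 3′ on the strand of the gene, with the E-box in capitals. Each stops before the first annotated exon base, or at the RefSeq start where that comes first, as for Atg5. The sequences cover chr16:45158579-45158784 and chr10:44268089-44268338 on the plus strand, chr11:50210828-50211070 on the minus strand and chr6:129532942-129533159 on the plus strand.
Atg3: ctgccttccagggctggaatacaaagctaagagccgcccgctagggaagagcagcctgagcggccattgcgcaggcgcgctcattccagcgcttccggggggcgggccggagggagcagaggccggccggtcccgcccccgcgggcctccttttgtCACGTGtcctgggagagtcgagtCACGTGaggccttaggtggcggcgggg
Atg5: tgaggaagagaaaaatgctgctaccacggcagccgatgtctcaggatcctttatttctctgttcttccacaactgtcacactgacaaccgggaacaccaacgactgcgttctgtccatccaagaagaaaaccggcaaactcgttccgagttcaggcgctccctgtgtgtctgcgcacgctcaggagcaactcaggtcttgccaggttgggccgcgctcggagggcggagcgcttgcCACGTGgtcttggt
Sqstm1: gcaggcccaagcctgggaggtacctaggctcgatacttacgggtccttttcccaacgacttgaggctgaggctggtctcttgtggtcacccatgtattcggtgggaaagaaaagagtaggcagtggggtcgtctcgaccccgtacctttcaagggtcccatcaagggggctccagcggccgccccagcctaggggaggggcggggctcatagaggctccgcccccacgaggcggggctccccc
Gabarapl1: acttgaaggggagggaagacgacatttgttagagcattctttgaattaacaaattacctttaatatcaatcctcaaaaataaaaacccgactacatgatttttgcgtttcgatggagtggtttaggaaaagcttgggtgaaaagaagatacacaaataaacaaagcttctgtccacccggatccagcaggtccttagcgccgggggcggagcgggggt
Atg3 holds the E-box at 2 places and Atg5 once, close to its RefSeq start, while the Sqstm1 and Gabarapl1 stretches hold none of the 3 motifs. The members with the E-box had log2 fold changes of 0.24 (Atg3), 0.25 (Atg5) and 0.11 (Atg7), each within 0.3 of no change.

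The transcription factors themselves overlapped between genotypes. Tfeb had 11.2, 13.3 and 11.2 CPM in knockout mice, against 12.7, 10.8 and 10.1 CPM in wild-type mice (log2 fold change 0.09 ± 0.16, adjusted p = 0.884 in edgeR). Tfe3 had 31.7, 39.5 and 41.5 CPM in knockout mice, against 51.6, 31.9 and 39.1 CPM in wild-type mice (-0.12 ± 0.19, adjusted p = 0.855). The activity of both factors is set largely by phosphorylation and movement into the nucleus, which RNA levels do not show.

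In the ULK complex, Ulk1 varied between mice of the same genotype by far more than between genotypes. Ulk1, the kinase that starts autophagy and is itself controlled by mTORC1 and AMPK, had 102.0, 195.4 and 210.8 CPM in knockout mice 1, 2 and 3, against 209.9, 168.3 and 89.1 CPM in wild-type mice 1, 2 and 3. Knockout 1 and wild-type 3 were about level and low, and the other four mice were high. The log2 fold change was 0.12 ± 0.37 (adjusted p = 0.932 in edgeR) and took the opposite sign without knockout 3 (-0.06) or wild-type 3 (-0.16). Rb1cc1, which encodes the scaffold FIP200, had 55.6, 53.7 and 56.0 CPM in knockout mice, against 53.1, 47.4 and 53.4 CPM in wild-type mice. The groups did not overlap, but the gap was narrow and the log2 fold change was 0.10 ± 0.11 (adjusted p = 0.759). The paralog Ulk2 and the subunits Atg13 and Atg101 gave 0.14 ± 0.13, 0.09 ± 0.11 and -0.15 ± 0.16.

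The lipid kinase complex had 3 of 6 genes with a higher mean in the knockout. Pik3c3, which encodes the catalytic subunit VPS34, had 17.0, 16.4 and 15.9 CPM in knockout mice, against 18.2, 21.3 and 19.7 CPM in wild-type mice. All knockout mice lay below all wild-type mice, with a log2 fold change of -0.26 ± 0.13 (adjusted p = 0.438 in edgeR). Becn1, the Beclin 1 subunit, had 44.1, 45.9 and 42.1 CPM in knockout mice, against 46.9, 43.0 and 45.9 CPM in wild-type mice, which overlapped. Atg14 and Uvrag, alternative subunits that direct the complex to autophagosomes or endosomes, gave 0.17 ± 0.18 and 0.08 ± 0.18. Pik3r4, the regulatory subunit VPS15, and Ambra1, a Beclin 1 partner, gave -0.09 ± 0.15 and 0.16 ± 0.14.

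Among the membrane factors, Atg2a was lower in all knockout mice and its paralog Atg2b was not. Both encode channel-like proteins that move lipid from the endoplasmic reticulum to the growing membrane. Atg2a (ENSMUSG00000024773; chromosome 19, 6241668 to 6262335, plus strand) had 51.0, 52.8 and 58.3 CPM in knockout mice 1, 2 and 3, against 91.7, 61.0 and 75.2 CPM in wild-type mice 1, 2 and 3. Wild-type 2 lay just above the knockout mice and wild-type 1 highest. The log2 fold change was -0.49 ± 0.16 (adjusted p = 0.277 in edgeR, 0.17 in DESeq2), and -0.33 without wild-type 1. Wild-type 1 and 3 were also the mice with the largest sums of macrophage markers, and wild-type 2 lay near the knockout mice there too; the part of cell makeup in the difference was not tested. Atg2b gave -0.08 ± 0.12. Atg2a made up 69.9% ± 1.18 of the summed RPKM of the pair in knockout livers and 75.4% ± 1.56 in wild-type livers (SD, n = 3 each; exact permutation p = 0.1, two-sided). Atg9a, a lipid scramblase carried on small vesicles, had 38.8, 32.7 and 33.9 CPM in knockout mice, against 34.9, 34.5 and 36.8 CPM in wild-type mice. Wipi2, which reads phosphatidylinositol 3-phosphate and recruits ATG16L1, was at 103.6 ± 3.21 CPM in knockout and 102.6 ± 5.12 CPM in wild-type livers (SD, n = 3 each). Its relative Wipi1 was uneven, at 28.1, 16.3 and 14.7 CPM in knockout mice 1, 2 and 3, against 20.0, 20.1 and 27.7 CPM in wild-type mice 1, 2 and 3. Wipi1 was thus highest in knockout 1 and wild-type 3, the mice in which Ulk1 was lowest.

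**Figure D4:**
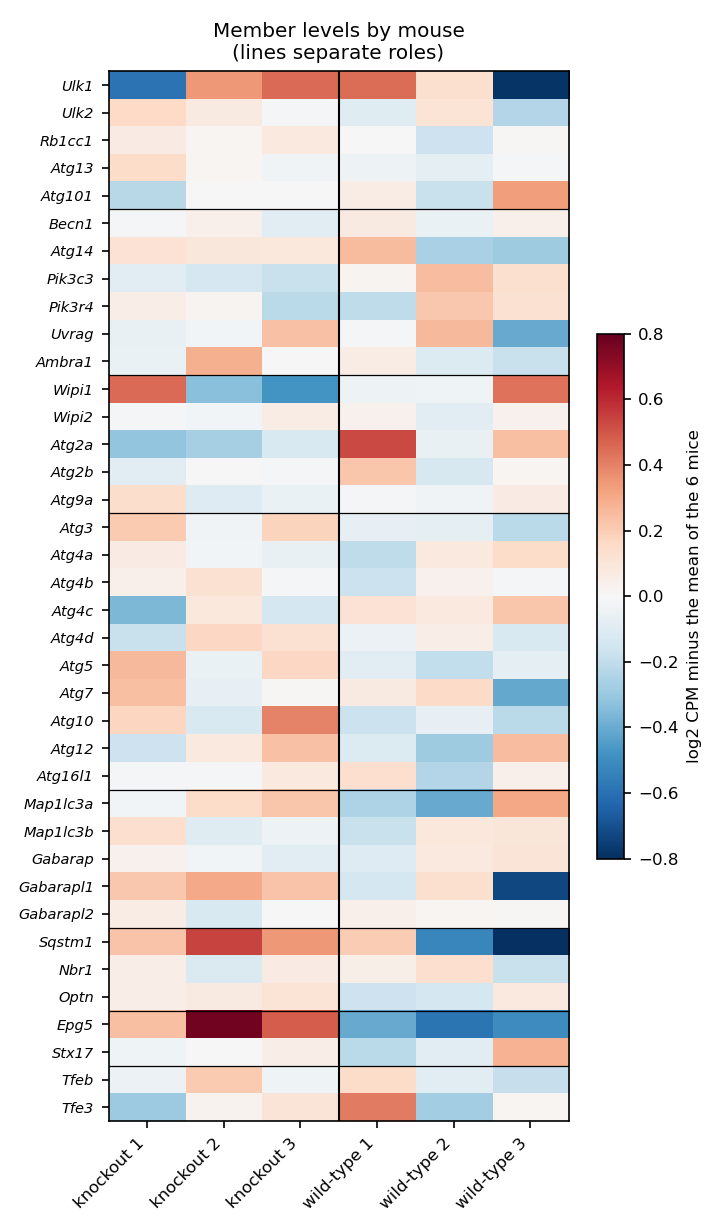
Log2 CPM of each member in each mouse minus its mean over the 6 mice, with knockout mice on the left and lines between roles. The Epg5 row changes colour with genotype, while Ulk1 (-0.59 in knockout 1 and -0.79 in wild-type 3) and Wipi1 (0.45 in knockout 1 and 0.43 in wild-type 3) change with individual mice.

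The spread between mice was larger in wild-type livers. The standard deviation of log2 CPM had a median over the members of 0.12 in knockout and 0.17 in wild-type livers, and it was larger in wild-type livers for 27 of 38 members (71.1%, against 67.3% of all genes tested). For 27 members the highest of the 6 mice was less than 1.5 times the lowest, and for 4 it was more than 2 times (Ulk1, Gabarapl1, Sqstm1 and Epg5). Beclin 1 and WIPI2 transcripts were the steadiest, at 1.11 times.

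The rest of the pathway was read from 7 lists of related genes, in which no gene passed edgeR's adjusted p of 0.05 over all genes and limma-voom called none. Of 12 tested genes for SNARE proteins, the HOPS tether and RAB7, the mean was lower in knockout livers for 10 (median log2 fold change -0.16), and 3 had an unadjusted p under 0.05, all lower, against 7.59% of all genes tested. They were Vps41 (44.2 ± 4.45 CPM in knockout and 57.6 ± 2.00 CPM in wild-type livers), Plekhm1 (22.6 ± 0.883 CPM in knockout and 29.6 ± 4.08 CPM in wild-type livers) and Vps11 (29.7 ± 1.62 CPM in knockout and 36.3 ± 2.34 CPM in wild-type livers; SD, n = 3 each). Vps41 and Vps11 are HOPS subunits and PLEKHM1 links RAB7 to HOPS and ATG8 proteins, and their edgeR adjusted p values were 0.257, 0.298 and 0.346 for Vps41, Plekhm1 and Vps11. These fusion genes thus had lower means where Epg5 had a higher one. Of 18 lysosomal genes listed as TFEB targets, 12 had a lower mean (median -0.12), where 48.9% of all genes tested had a higher mean. An unadjusted p under 0.05 in edgeR was reached by 3 of the 18, all lower, against 7.59% of all genes tested. Among these 3 were the hydrolases Gla (-0.77 ± 0.21, adjusted p = 0.229 in edgeR) and Ctsd (-0.43 ± 0.13, adjusted p = 0.265 in edgeR). Macrophages are rich in lysosomes and their markers were lower in the knockout (12 of 12 lower in mean, median -1.30), and the part of cell makeup in the lysosomal values was not tested.

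Among 18 tested receptors for other cargo, 9 had a higher mean in the knockout (median 0.00). Stbd1, which tethers glycogen to GABARAPL1, had 167.0, 329.2 and 248.9 CPM in knockout mice, against 143.2, 153.3 and 125.6 CPM in wild-type mice (log2 fold change 0.82 ± 0.24, adjusted p = 0.239 in edgeR and 0.0461 in DESeq2). It was the only gene of this list with an unadjusted p under 0.05 (against 5.22% of all genes in that direction) and the one DESeq2 called. Of 12 other core autophagy genes tested, 10 had a lower mean (median -0.11). An unadjusted p under 0.05 in edgeR was reached by 1 of the 12, lower in the knockout, against 7.59% of all genes tested in that direction. It was the Beclin 1 binder Bcl2l1 (-0.68 ± 0.25, adjusted p = 0.331 in edgeR). Bcl2l1 overlapped between genotypes, since wild-type 2 (28.0 CPM) lay inside the knockout range (21.9 to 31.9 CPM). Wild-type 1 and 3, the mice with the largest sums of macrophage markers, lay above all knockout mice. The part of cell makeup in the Bcl2l1 difference was not tested. Of 26 tested genes of mTORC1, the RAG GTPases and AMPK, which govern ULK1 and TFEB, the median was -0.04 and none had an unadjusted p under 0.05; the mTORC1 subunit Rptor came nearest (-0.26 ± 0.13, adjusted p = 0.468).

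Among 10 other regulators of autophagy transcription the median was 0.07. Tfec, a relative of TFEB found mainly in macrophages, was at 1.44 ± 0.606 CPM in knockout and 3.56 ± 1.43 CPM in wild-type livers (SD, n = 3 each). Its log2 fold change was -1.31 ± 0.41 (adjusted p = 0.267 in edgeR). No other gene of this list had an unadjusted p under 0.05 in edgeR (against 7.59% of all genes tested, lower in the knockout). Sqstm1 is a known NRF2 target, and of the 9 genes in a list of its other targets and Keap1, 8 were lower on average in knockout livers (median -0.40; of all genes tested, 48.9% were higher on average). The summed level of the list was 2033, 1687 and 1703 CPM in knockout mice, against 3232, 2071 and 1561 CPM in wild-type mice 1, 2 and 3, so the genotypes overlapped, with wild-type 1 far above the other mice and wild-type 3 the lowest. The quinone reductase Nqo1 had 28.4, 23.8 and 24.3 CPM in knockout mice, against 35.2, 45.6 and 32.7 CPM in wild-type mice (-0.57 ± 0.16, adjusted p = 0.231 in edgeR). The cystine transporter Slc7a11 (-2.39 ± 0.92) and the glutathione reductase Gsr (-0.40 ± 0.16) were the others with an unadjusted p under 0.05 (3 lower in all, against 7.59% of all genes tested). The Slc7a11 level was 0.343 to 0.664 CPM in knockout mice and 0.761, 0.979 and 6.11 CPM in wild-type mice 1, 2 and 3. Gsr overlapped between genotypes, at 112.9, 94.4 and 93.4 CPM in knockout mice, against 159.6, 126.4 and 111.5 CPM in wild-type mice. Nfe2l2, which encodes NRF2, gave 0.01 ± 0.16.

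**Figure D5:**
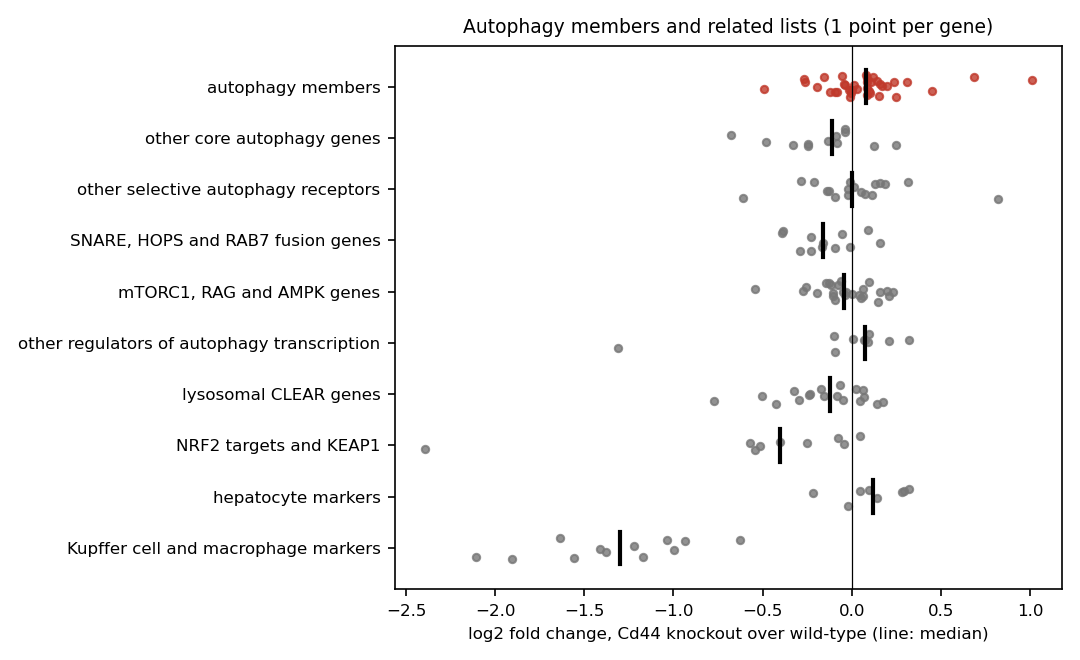
Log2 fold changes, knockout over wild-type, of the 38 members and of related lists, with 1 point per gene tested and a line at the median of each list. The members centre near 0 (median 0.08) with Epg5 and Sqstm1 to the right, the lysosomal (-0.12) and fusion (-0.16) lists lie slightly to the left, and the macrophage markers (-1.30) lie far to the left.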

How the data were processed

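Poly(A) RNA from liver was sequenced with random hexamer priming, 1 library per mouse, per the labels' protocols, which describe no step that marks strand. The deposited values are raw counts per Ensembl gene, made by the authors with no normalisation. Per the submitters' processing notes, featureCounts 1.5.0-p3, HISAT2 2.0.5 and StringTie 1.3.3b were used with build GRCm38.p6. How reads with several matches and strand were treated, and with which annotation release, is not given in the sources used here. Of 54682 rows, 150 were unnamed gene models (0.273% to 0.509% of a library) and were left out; 54495 had an entry in GENCODE M21 (GRCm38), from which symbols, coordinates and exon lengths were taken.

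Differences were tested with edgeR 4.0.16 under R 4.3.3 (filterByExpr, TMM, robust quasi-likelihood F test, Benjamini-Hochberg adjustment over 14145 genes, threshold 0.05). Each standard error is the size of the log2 fold change over the root of its F value. As alternatives, limma 3.58.1 (voom), DESeq2 1.42.0, other scalings, filters and designs, and fits with each mouse left out were run. Replicates are mice, which the labels name separately. A count of 0 allows up to 3 counts, which is 0.150 to 0.206 CPM in these libraries, for counting error only.

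The members and lists were chosen with earlier results of these data known. Members are given mouse by mouse where their unadjusted p is under 0.05, where genotypes do not overlap, or where they belong to a set of 14 chosen for their role; Wipi1 by mouse and Nfe2l2 were chosen after values were seen. Of the related lists, up to 4 with the smallest p are named, some by mouse; 1 such gene is not reported here. Without strand, reads of Becn1, Atg14, Uvrag, Optn, Sqstm1 and Gabarapl1 cannot be told from those of overlapping genes on the other strand, which held at most 13.0 counts on average. Rb1cc1, whose genotypes were separated by a narrow gap, shares 3.8% of its exon bases with 4732440D04Rik on the other strand, which held 32.2 counts on average. The same holds for Map1lc3b, Atg2b, Atg9a and Atg4d, whose partners Zcchc14, Gskip, Ankzf1 and Kri1 held 1228.3, 307.7, 296.7 and 106.5 counts on average; the overlap was 0.77%, 2.85%, 0.80% and 19.3% of the exon bases of these members.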

Additional observations from a re-analysis of the deposited data

How the results depend on the processing

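The number of genes called over all genes moved with the tool: 2 in edgeR, 6 without a low-count filter, 340 with DESeq2, 0 with limma-voom (1695 with an unadjusted p under 0.05), 1 with mouse number as a replicate block, and 0 to 151 when each mouse was left out in turn. There were 0 without knockout 2 or 3, 1 without knockout 1 and 151 without wild-type 2. Of the members, DESeq2 called 1, Epg5, and edgeR none under any alternative or with any mouse left out (2 to 4 members with an unadjusted p under 0.05). The median log2 fold change of the members was 0.08 and ran from 0.02 to 0.078 with each mouse left out. The log2 fold change of Map1lc3b, -0.00 in the edgeR fit, was 0.00034 with RLE scaling, 0.00025 in DESeq2, 0.0012 in limma-voom and 0.0082 over protein-coding genes, and ran from -0.0844 to 0.048 with each mouse left out. With each mouse left out, the direction also changed for Atg9a (-0.0747 to 0.04), Ulk1 (-0.16 to 0.40), Tfeb (-0.0034 to 0.19), Tfe3 (-0.26 to 0.0809), Atg16l1 (-0.0589 to 0.11) and Atg7 (-0.0483 to 0.23); the cause was not tested. Of 252 values of named members under the alternatives, 234 kept direction and side of the threshold. The labels do not say that mouse numbers pair the mice. Deviations from the group means of same-numbered mice correlated at -0.02, -0.02 and -0.01, and no mouse correlated best with its own number. With 3 mice per genotype, these values cannot exclude a pairing that has little effect on RNA. Under the block Epg5 had a log2 fold change of 1.00 and an adjusted p of 0.432 in edgeR. No member was limited by depth, but 3 mice per genotype allow no exact permutation p under 0.1 for any one value.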

Other observations

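No gene tested next to Epg5 had an unadjusted p under 0.05. Within 300 kb on chromosome 18, the 3 other genes tested were Atp5a1, a subunit of ATP synthase (967.0 ± 88.7 CPM in knockout and 997.1 ± 60.1 CPM in wild-type livers; SD, n = 3 each), Pstpip2 (9.08 ± 0.797 CPM in knockout and 8.10 ± 2.18 CPM in wild-type livers) and Haus1 (3.99 ± 0.609 CPM in knockout and 4.98 ± 1.42 CPM in wild-type livers). Their edgeR adjusted p values were 0.942, 0.830 and 0.708.

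The targeted Cd44 gene lies on chromosome 2 with 4 of the members. Atg13 and Ambra1 lie 11.1 and 10.9 Mb from Cd44, and Map1lc3a and Optn 52.4 and 97.7 Mb. Each had a higher mean in the knockout, with log2 fold changes of 0.09 to 0.20 and edgeR adjusted p of 0.650 to 0.801.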
